A study of Mus musculus with 2 samples.

Results

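The genes for cytosolic translation initiation and elongation factors are described here as targets of chromatin immunoprecipitation sequencing (ChIP-seq). The set holds every protein-coding gene of mouse build NCBIM37 whose symbol starts with Eif or Eef, leaving out Eif2c, Eif2ak and Eef2k, which name Argonaute proteins and kinases. It comes to 58 of 22380 protein-coding genes. The rule uses symbols and no measured value, although earlier results of these data were known when it was set. Of these, 57 lie on the autosomes and X, where 22350 protein-coding genes were compared. The remaining member, Eif2s3y on the Y chromosome, drew 0 tags from either library around its transcription start site (TSS), out to 1 kb, and is left out of the results that follow.

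Both libraries came from the same cells, 3T3 fibroblasts of embryonic mouse origin with the genotype Ccnd1-/-, into which FLAG-tagged cyclin D1 had been put with an MSCV retroviral vector, so that cyclin D1 came from the tagged copy alone. Cells received no treatment, and the labels do not say whether the line is a clone or a pool. Chromatin was precipitated with the monoclonal antibody M2 against the FLAG tag or with normal mouse IgG, which measures background recovery. The comparison asks where DNA was recovered with anti-FLAG beyond IgG. Anti-FLAG gave 9259840 tags (mapped reads, 36 bp each) and IgG gave 9312346. Inside introns 1 to 3 of the deleted Ccnd1 gene, 4860 bp on chromosome 7, 1 anti-FLAG and 0 IgG tags were found, where the genome-wide mean would give 17.0 anti-FLAG tags. Each antibody has a single library, so nothing below has a replicate check, and every test on tags compares these 2 libraries only. No RNA was measured, so the fibroblast label could not be checked against marker genes. Intervals are 95% exact intervals and cover counting error alone.

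Translation begins when the eIF4F complex binds the mRNA cap and recruits the small ribosomal subunit, which carries eIF1, eIF1A, eIF3 and the initiator tRNA held by eIF2 and GTP. After the start codon is found, eIF5 and eIF5B bring in the large subunit, and the elongation factors eEF1 and eEF2 then deliver aminoacyl-tRNAs and move the ribosome along the mRNA. Most of these genes are active in growing cells, and cyclin D1, best known as the partner of CDK4 and CDK6 in G1 phase, is a protein whose own synthesis is sensitive to eIF4E.

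The sequences just upstream of the TSS are shown for the 6 members with the smallest p in the narrower window, 500 bp either side of the TSS, and for Eef1e1, a member with more IgG than anti-FLAG tags within 1 kb. Each is printed on the sense strand of the gene and ends at the base before the TSS, and that of Eif2s1 is cut to 180 bases where an exon of its neighbour begins. Capitals mark matches, on either strand, to short motifs searched by their letters. The first group is Eef1g at chr19:9041331-9041530 (plus strand), Eif4a2 at chr16:23107317-23107516 (plus), Eif3a at chr19:60866597-60866796 (minus), Eif2s1 at chr12:79962626-79962805 (plus), Eif3f at chr7:116077731-116077930 (plus) and Eif3b at chr5:140895059-140895258 (plus). Eef1e1 is at chr13:38750898-38751097 (minus). All coordinates are NCBIM37.
Eef1g: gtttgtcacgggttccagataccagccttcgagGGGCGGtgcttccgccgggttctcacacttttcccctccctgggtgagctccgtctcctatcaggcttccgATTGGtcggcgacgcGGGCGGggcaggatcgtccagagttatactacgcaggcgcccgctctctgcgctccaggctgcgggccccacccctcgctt
Eif4a2: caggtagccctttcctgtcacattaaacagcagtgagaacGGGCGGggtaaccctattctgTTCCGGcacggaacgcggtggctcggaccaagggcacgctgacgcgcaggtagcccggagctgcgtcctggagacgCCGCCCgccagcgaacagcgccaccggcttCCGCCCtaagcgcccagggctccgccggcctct
Eif3a: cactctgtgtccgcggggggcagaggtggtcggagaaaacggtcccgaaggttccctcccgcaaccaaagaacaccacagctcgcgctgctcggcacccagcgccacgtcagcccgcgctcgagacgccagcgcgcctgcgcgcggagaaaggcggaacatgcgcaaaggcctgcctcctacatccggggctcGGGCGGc
Eif2s1: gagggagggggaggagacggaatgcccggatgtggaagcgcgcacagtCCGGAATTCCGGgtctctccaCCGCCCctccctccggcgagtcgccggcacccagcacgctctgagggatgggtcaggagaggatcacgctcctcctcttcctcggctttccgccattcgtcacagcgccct
Eif3f: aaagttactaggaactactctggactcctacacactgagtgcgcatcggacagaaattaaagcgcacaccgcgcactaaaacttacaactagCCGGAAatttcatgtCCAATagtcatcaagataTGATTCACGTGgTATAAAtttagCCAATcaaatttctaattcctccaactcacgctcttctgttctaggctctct
Eif3b: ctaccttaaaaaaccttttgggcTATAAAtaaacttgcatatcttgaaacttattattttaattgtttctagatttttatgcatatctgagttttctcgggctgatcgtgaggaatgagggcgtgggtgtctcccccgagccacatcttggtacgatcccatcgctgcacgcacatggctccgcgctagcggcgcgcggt
Eef1e1: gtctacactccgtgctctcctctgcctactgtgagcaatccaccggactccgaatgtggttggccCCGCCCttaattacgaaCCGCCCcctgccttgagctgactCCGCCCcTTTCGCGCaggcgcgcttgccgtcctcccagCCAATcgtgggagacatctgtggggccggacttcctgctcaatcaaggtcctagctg

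The upstream sequences differ in kind. Eef1g, Eif4a2, Eif3a and Eif2s1 are 65.5 to 69.5% GC and hold GC boxes of the Sp1 type (GGGCGG), of which Eif4a2 has 3. Eif2s1 has an ETS core (CCGGAA) on each strand, the pair abutting from -132 to -121 relative to the TSS. Eif3f and Eif3b are AT-richer, at 41.5% and 46.5% GC, and neither has a GC box in the printed stretch. In Eif3f an ETS core lies beside a pair of CCAAT boxes, an AP-1 site (TGATTCA) that overlaps an E-box (CACGTG), and a TATA box (TATAAA) from -63 to -58. Eef1e1 is 62.0% GC and has 3 GC boxes, a CCAAT box and an E2F-type match (TTTCGCGC). Its IgG tags were the more numerous within 1 kb, but within 500 bp it had 6 anti-FLAG and 5 IgG tags.

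Across all 57 promoters, taken from 250 bp before to 50 bp after the TSS, median GC was 61.0% (43.3 to 78.3%), against 55.3% over all 22350 protein-coding promoters. The median ratio of observed to expected CpG was 0.83, against 0.53 over all promoters. The motifs were searched on both strands in the same 300-bp window. GGGCGG was found in 75.4% of members and 43.5% of all promoters, CCGGAA in 38.6% and 17.5%, CACGTG in 14.0% and 7.79%, and the YY1 motif AAGATGGC in 8.77% and 3.29%. TATAAA was found in 5.26% of members, against 13.4% of all promoters, and CCAAT in 31.6%, against 37.9%. A match describes letters and not a bound factor. Of the 22 members with the ETS core, 10 passed the promoter test described next in at least 1 window, and of the 35 without it, 12 did. The median log2 ratio of anti-FLAG to IgG within 1 kb went the other way, at 1.00 with the core and 1.08 without. No test was made of either difference, and no share of all promoters stands beside the counts.

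More anti-FLAG than IgG tags were found at most translation factor promoters. Within 1 kb of the TSS the members had 4 to 62 anti-FLAG tags (median 22) and 3 to 24 IgG tags (median 11). Counts were compared after scaling IgG by 0.994, the ratio of library totals, and 52 of 57 members had more anti-FLAG tags, as did 76.3% of all promoters. Summed over the members there were 1279 anti-FLAG and 623 IgG tags, a ratio of 2.06 (95% interval 1.87 to 2.28), against 1.69 (1.68 to 1.70) over all protein-coding promoters. The median log2 ratio, with 1 tag added to each count, was 1.08 for the members and 0.59 for all promoters.

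Of the 57 members, 53 had at least 20 tags in both libraries together and were compared by a 2-sided exact binomial test conditional on the sum, with Benjamini-Hochberg adjustment over all 10947 protein-coding promoters with that many tags. The median log2 ratio was 1.09 over these 53 and 0.88 over all promoters tested. Anti-FLAG was higher at 20 of the 53 (37.7%) at an adjusted exact p under 0.05, against 29.6% of all promoters tested. It was lower at 0 members, against 0.0913% of all, and at an unadjusted p under 0.05 it was higher at 29 members, against 43% of all, and lower at 0, against 0.265%. With IgG corrected for the GC content of each promoter, by a step explained with the distant windows, 0 of the 53 passed, against 1.82% of all. The 4 members with too few tags were Eef1a2 and Eif4g1 (4 anti-FLAG and 3 IgG tags each), Eif4e1b (6 and 4) and Eif5a2 (6 and 7).

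Within 500 bp of the TSS the ratio was larger. The members had 743 anti-FLAG and 241 IgG tags there, a ratio of 3.10 (2.68 to 3.60), against 2.21 (2.19 to 2.23) over all promoters, and their median log2 ratio was 1.51, against 0.81. With the 5 members of 0 IgG tags set at the floor of 3 counts, and 5 at or under that floor in both libraries left out, the median was 1.56, against 1.01 over all. In this window 23 members reached 20 tags, and anti-FLAG was higher at 13 of them (56.5%), against 62.6% of the 3010 promoters tested. It was lower at 0 members and at 0.0997% of all. The median log2 ratio was 1.52 over these 23 members and 1.45 over all 3010 promoters. With the GC correction 2 of the 23 passed, Eif3f and Eif4a2, against 11.5% of all. The tag minimum keeps mostly promoters with many anti-FLAG tags in so narrow a window, and the share of members called was close to that of the other promoters so kept. Together 22 members passed in at least 1 window. No share of all promoters is given for that joint count, so it cannot be read as above or below the background. Eef1g, Eefsec, Eif2b1, Eif2d, Eif2s1, Eif2s2, Eif3a, Eif3b, Eif3f, Eif4a2 and Eif5a passed in both, Eef1b2 and Eif3m within 500 bp only, and the other 9 within 1 kb only, 8 of which were below the tag minimum within 500 bp. At 6 of the 22 (Eef1b2, Eif2b1, Eif2s1, Eif3c, Eif4a2 and Eif5b) another gene starts within 2000 bp, and the tags there cannot be assigned to 1 gene.

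**Figure D1:**
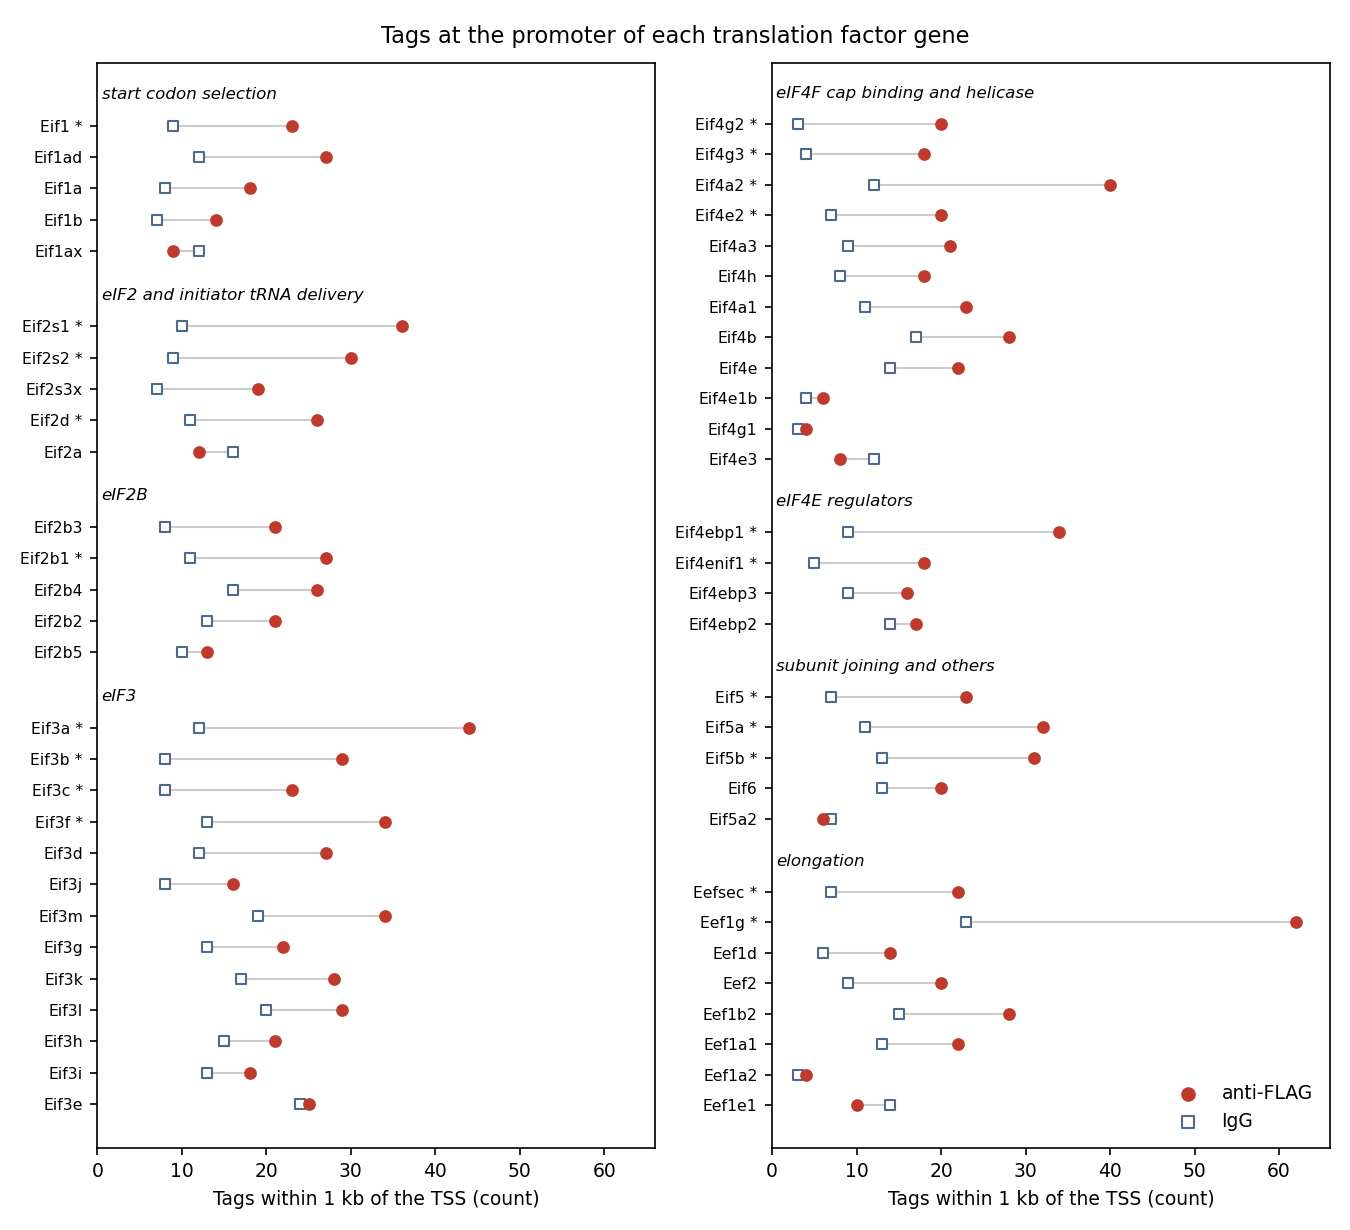
Tags within 1 kb of the TSS (horizontal axis, count) at the 57 translation factor genes, grouped by role, with anti-FLAG as filled circles and IgG as open squares, 1 library each. Stars mark the 20 members where anti-FLAG passed the test, and Eef1g, with 62 anti-FLAG and 23 IgG tags, lies farthest right.

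The cap-binding and helicase genes of eIF4F held both the highest and the lowest log2 ratios of the tested members within 1 kb. Eif4g2, on chromosome 7 with its TSS at 118226544, encodes an eIF4G relative that initiates without the cap and held 20 anti-FLAG and 3 IgG tags within 1 kb. That is a ratio of 6.70, with the wide interval of 1.99 to 35.2 (adjusted exact p = 0.00405). The helicase gene Eif4a2, on chromosome 16, held 40 anti-FLAG and 12 IgG tags within 1 kb (log2 ratio 1.66, adjusted exact p = 0.00197), and 29 and 5 within 500 bp. Its anti-FLAG tags lay more on the gene side, with 10 in the 500 bp upstream and 19 in the 500 bp downstream, against 0 upstream and 5 downstream with IgG. Its host-gene snoRNA Snord2 starts 1509 bp away. The scaffold gene Eif4g3 (18 anti-FLAG and 4 IgG tags) and Eif4e2 (20 and 7), which encodes an eIF4E relative that represses translation, also passed, at adjusted exact p of 0.0151 and 0.0436.

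The remaining eIF4F genes did not pass. Eif4e, for the cap-binding protein itself, held 22 anti-FLAG and 14 IgG tags within 1 kb (adjusted exact p = 0.293), and within 500 bp it had 4 and 6. The main scaffold gene Eif4g1 could not be tested at the outermost annotated 5' end, where 64.4% of the 36-base words within 1 kb occur once in the genome, the lowest share of any member. At the start of its transcript with the longest coding sequence, 4410 bp away, it had 21 anti-FLAG and 8 IgG tags (adjusted exact p = 0.0512). Eif4e3, an eIF4E relative, had 8 anti-FLAG and 12 IgG tags (log2 ratio -0.52, adjusted exact p = 0.621), the lowest log2 ratio among members within 1 kb. Over the 12 genes of this role, 4 of 10 tested were higher and the median log2 ratio was 1.05.

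The regulators of eIF4E include the 4E-binding proteins, which hold eIF4E away from eIF4G until mTORC1 phosphorylates them. Eif4ebp1, on chromosome 8 with its TSS at 28370799, held 34 anti-FLAG and 9 IgG tags within 1 kb (log2 ratio 1.81, adjusted exact p = 0.00224). Most of that excess was not at the TSS. In the stretch 500 to 1000 bp downstream there were 19 anti-FLAG and 3 IgG tags, while within 500 bp there were 8 and 2. Eif4enif1, for the protein that carries eIF4E into the nucleus, had 18 anti-FLAG and 5 IgG tags and also passed (adjusted exact p = 0.0281). Eif4ebp2 had 17 and 14 tags and Eif4ebp3 16 and 9, and neither passed.

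The 13 genes for subunits of eIF3, the scaffold on the small ribosomal subunit, all had more anti-FLAG than IgG tags within 1 kb, and 4 passed. Eif3a, for the largest subunit, had 44 anti-FLAG and 12 IgG tags (log2 ratio 1.80, adjusted exact p = 6.51e-04), the smallest p of any member within 1 kb. Eif3b had 29 anti-FLAG and 8 IgG tags (adjusted exact p = 0.00547), Eif3f had 34 and 13 (adjusted exact p = 0.0135) and Eif3c had 23 and 8 (adjusted exact p = 0.0292). A U6 gene starts 783 bp from the TSS of Eif3c. At Eif3f all 26 anti-FLAG tags within 500 bp were upstream of the TSS and 0 downstream, and all 5 IgG tags were upstream too. Eif3a and Eif3b leaned the same way, with 18 anti-FLAG tags upstream and 5 downstream at Eif3a, and 19 and 2 at Eif3b. With IgG there were 1 upstream and 2 downstream at Eif3a, and 3 and 0 at Eif3b. Eif3m passed within 500 bp (19 anti-FLAG and 5 IgG tags, adjusted exact p = 0.0105), and within 1 kb it had 34 and 19 tags (adjusted exact p = 0.0976). At the other end, Eif3e had 25 anti-FLAG and 24 IgG tags, and the median log2 ratio over the 13 subunits was 0.82.

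eIF2 brings the initiator tRNA to the ribosome and is the point at which stress kinases shut initiation down, while eIF2B recharges it with GTP. The genes for its alpha and beta subunits passed in both windows. Eif2s1 held 36 anti-FLAG and 10 IgG tags within 1 kb (log2 ratio 1.76, adjusted exact p = 0.00220), and 24 and 4 within 500 bp. Eif2s2 had 30 and 9 tags within 1 kb (log2 ratio 1.64, adjusted exact p = 0.00685), and 18 and 4 within 500 bp. The TSS of Atp6v1d lies 181 bp from that of Eif2s1. The gamma subunit gene on X, Eif2s3x, had 19 and 7 tags (adjusted exact p = 0.0585). Eif2d, for a factor that delivers tRNA without GTP, had 26 and 11 tags and passed (adjusted exact p = 0.0466). Eif2a, which despite its symbol encodes a separate protein, had 12 anti-FLAG and 16 IgG tags.

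Among the 5 eIF2B subunit genes, Eif2b1 passed, with 27 anti-FLAG and 11 IgG tags within 1 kb (adjusted exact p = 0.0355), and the TSS of Gtf2h3 lies 9 bp away. Eif2b3 had 21 and 8 tags (adjusted exact p = 0.0521). The median log2 ratio was 1.33 over the 5 genes for eIF2 and initiator tRNA delivery and 0.68 over the 5 for eIF2B, with values that overlap between the 2 sets.

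Start codon selection rests on eIF1 and eIF1A. Eif1 held 23 anti-FLAG and 9 IgG tags within 1 kb and passed (adjusted exact p = 0.0463). Eif1ad, for an eIF1A-like protein, had 27 and 12 tags and just missed (adjusted exact p = 0.0527). The eIF1A gene on X, Eif1ax, had 9 anti-FLAG and 12 IgG tags. The autosomal Eif1a had 18 and 8 tags, of which 14 and 1 lay within 500 bp, below the tag minimum.

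Of the genes for subunit joining and related steps, 3 of 4 tested passed. Eif5, for the GTPase activator of eIF2, held 23 anti-FLAG and 7 IgG tags within 1 kb (adjusted exact p = 0.0181). Within 500 bp it had 15 anti-FLAG and 0 IgG tags, which is 5.03-fold higher in anti-FLAG when IgG is set at a floor of 3 counts. The lower end of the 95% interval was 3.61. At the start of its longest coding transcript, 752 bp away, Eif5 had 30 and 13 tags within 1 kb (adjusted exact p = 0.0354). Within 500 bp of that start it had 9 and 3. Eif5a, for the factor that frees stalled ribosomes and carries hypusine, had 32 and 11 tags (log2 ratio 1.47, adjusted exact p = 0.00990). Eif5b, for the GTPase that joins the subunits, had 31 and 13 tags (adjusted exact p = 0.0281), 15 of the anti-FLAG tags lying 500 to 1000 bp upstream, and Txndc9 starts 664 bp away. Eif6, which keeps the large subunit from joining early, had 20 and 13 tags and did not pass.

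Among the 8 elongation factor genes, Eef1g had the most tags of any member in the anti-FLAG library. This gene for the gamma subunit of the eEF1B exchange complex held 62 anti-FLAG and 23 IgG tags within 1 kb (log2 ratio 1.40, adjusted exact p = 8.28e-04), and 40 and 10 within 500 bp (log2 ratio 1.91, adjusted exact p = 2.44e-04). Its tags fell on both sides of the TSS, 23 upstream and 17 downstream within 500 bp, against 7 and 3 with IgG. Eefsec, for the factor that delivers selenocysteine tRNA, had 22 and 7 tags within 1 kb (adjusted exact p = 0.0242) and 18 and 2 within 500 bp. Eef1b2, another exchange subunit, passed within 500 bp only, with 16 and 5 tags (adjusted exact p = 0.0299), and its TSS is 3 bp from that of Ndufs1.

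The genes for the abundant elongation factors themselves did not pass at their outermost TSS. Eef2, for the translocase, had 20 anti-FLAG and 9 IgG tags (adjusted exact p = 0.102). Eef1a1, for the factor that delivers aminoacyl-tRNA, had 22 and 13 tags (adjusted exact p = 0.228). The annotation places the start of its longest coding transcript 7427 bp from that TSS, and there it had 25 and 10 tags within 1 kb (adjusted exact p = 0.0400) and 18 and 1 within 500 bp. For this gene the call therefore turned on which annotated start was used. Eef1e1, for a synthetase-complex protein, had 10 anti-FLAG and 14 IgG tags, and Eef1a2, the form made in muscle and neurons, had 4 and 3.

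The roles did not separate. The median log2 ratio ran from 0.68 over the 5 eIF2B genes to 1.33 over the 5 for eIF2 and initiator tRNA delivery, and the ranges of all 8 roles overlapped. Anti-FLAG passed as lower in none of them.

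**Figure D2:**
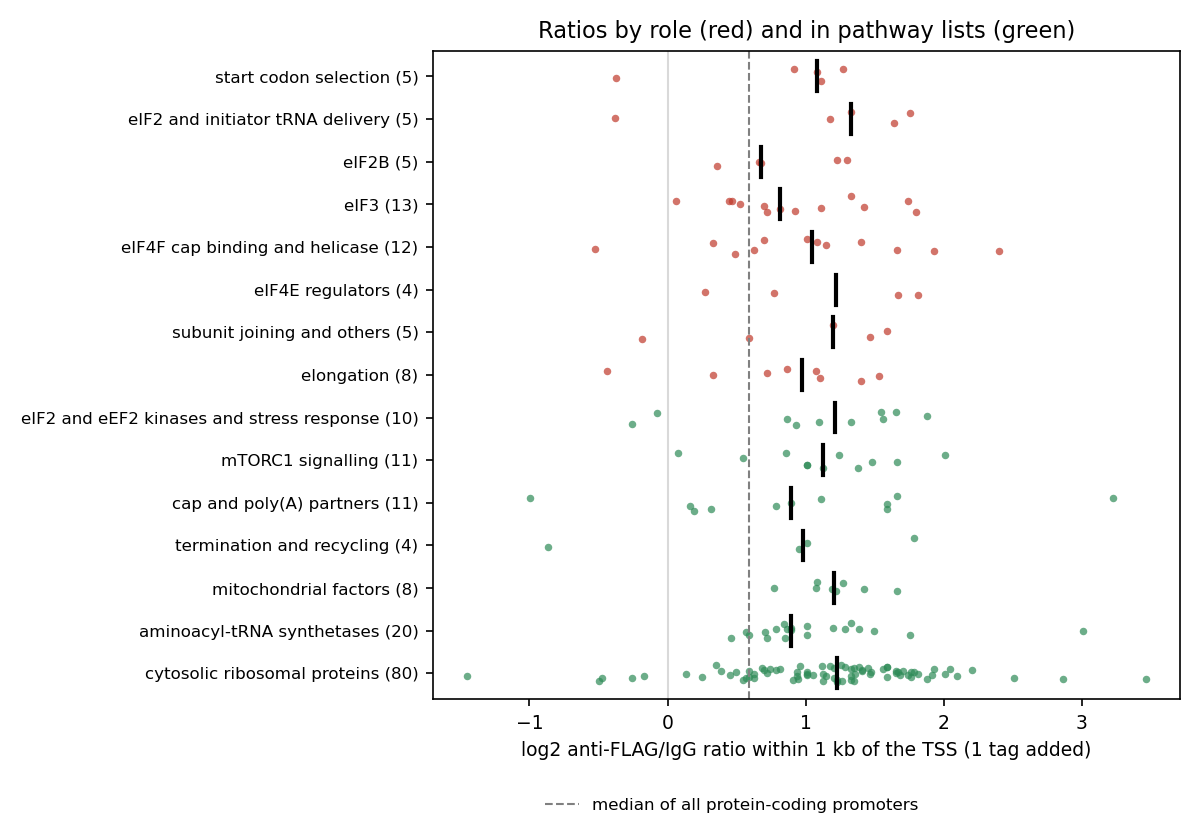
Log2 anti-FLAG to IgG ratios within 1 kb of the TSS (horizontal axis, 1 tag added to each count) for translation factor genes by role, in red, and for lists of related genes, in green, with the number of genes in brackets. Each point is a gene, black bars are medians, and the dashed line is the median of all protein-coding promoters, 0.59. The medians of all 15 rows lie to its right.

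Tag density placed the excess close to the TSS. Summed over members, the 500 bp upstream of the TSS held 440 anti-FLAG and 162 IgG tags, a ratio of 2.73 (2.28 to 3.29), against 2.11 over all promoters. The 500 bp downstream held 302 anti-FLAG and 79 IgG tags, a ratio of 3.84 (2.99 to 4.99), against 2.36 over all. Farther out the ratio was 1.33 from 1000 to 500 bp upstream and 1.50 from 500 to 1000 bp downstream, and it was 1.15 and 1.21 at 4 to 5 kb on the upstream and downstream sides.

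Both libraries contributed to the high ratio. Anti-FLAG density in the 250 bp before the TSS was 3.26 times its level at 4 to 5 kb, against 2.19 times for all promoters and 4.33 times for ribosomal protein genes. IgG density in the 250 bp after the TSS was 0.541 times its own level at 4 to 5 kb, against 0.583 for all promoters and 0.461 for ribosomal protein genes. The anti-FLAG peak thus lay upstream of the TSS while the IgG minimum lay downstream of it, and the larger pooled ratio downstream came with fewer anti-FLAG tags than upstream.

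**Figure D3:**
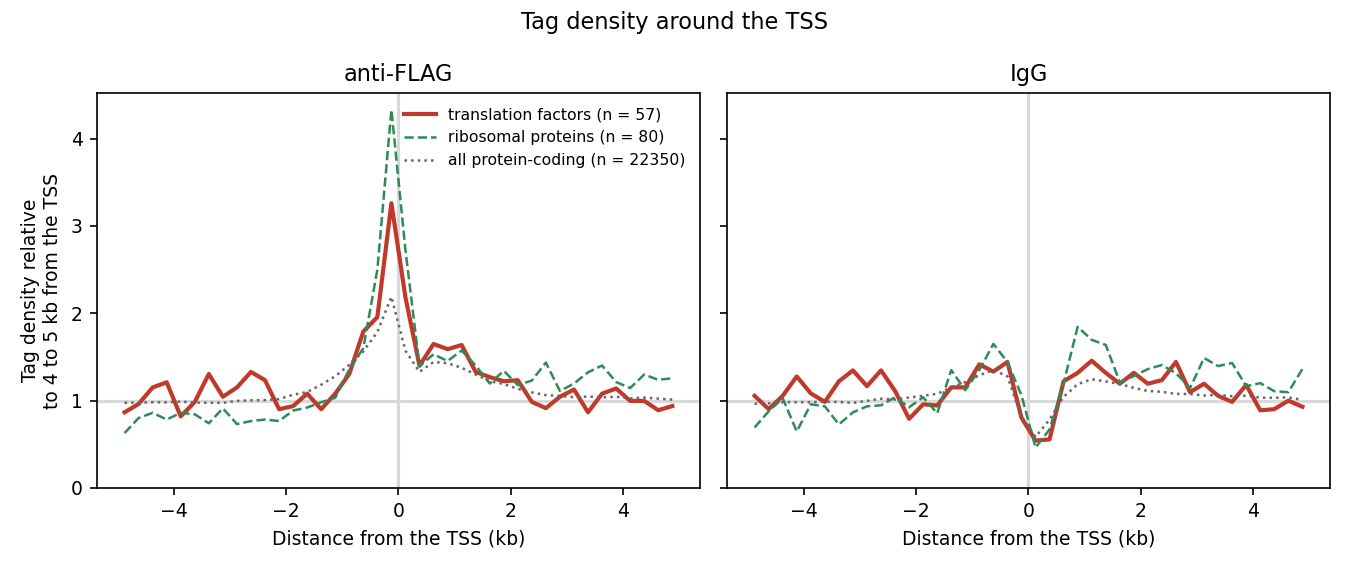
Tag density in 250-bp bins up to 5 kb either side of the TSS, relative to the mean density at 4 to 5 kb (vertical axis), for anti-FLAG on the left and IgG on the right. Translation factor genes (solid red) reach 3.26 in anti-FLAG, between all protein-coding genes (dotted grey, 2.19) and cytosolic ribosomal protein genes (dashed green, 4.33), and all 3 dip in IgG just after the TSS.

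The ratio of the libraries also depended on base composition far from the outermost TSS of any gene, in windows that can lie inside gene bodies. In 500-bp windows more than 10 kb from every TSS, the anti-FLAG to IgG ratio was 0.953 at 40 to 42% GC, 1.33 at 50 to 52% and 2.18 at 60 to 62%. The highest stratum, 68 to 70% GC, had a ratio of 4.70 from only 266 windows. That ratio was also applied to all sequence of higher GC, so the expectation for the GC-richest promoters is thinly supported. The expected ratio from such windows of the same GC as each member's promoter had a median of 1.43 over the members within 1 kb and 1.83 within 500 bp, against 1.29 and 1.50 over all promoters. When the IgG counts were multiplied by that ratio, no member stayed higher within 1 kb, and 11 of 53 were higher at an unadjusted p under 0.05, against 16.7% of all promoters tested. At the 20 members that had passed, the log2 ratio stayed above 0, between 0.37 and 1.72, where it had been 1.18 to 2.40. These 20 had been picked for a high ratio in the same counts, so that sign was largely set by the choice. The median log2 ratio became 0.43 for the members and 0.23 for all promoters. Over the 10947 tested promoters alone, which include 53 of the members, the median became 0.46. Within 500 bp the members that stayed higher were Eif3f (adjusted exact p = 0.0263) and Eif4a2 (adjusted exact p = 0.0410). The part of GC content in the members' ratios was not tested beyond this correction.

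The members' own ratios followed the distant windows only loosely. Across the 57 members the log2 ratio within 1 kb had a Pearson r of 0.25 and a Spearman rho of 0.23 with that of distant windows matched for GC, and across all 10947 tested promoters these were 0.45 and 0.41. All points share the same 2 libraries, and these values are descriptions. Individual genes lay at different distances from the expectation. Eif5, whose GC predicts a ratio of 3.99 within 500 bp, had 15 anti-FLAG and 0 IgG tags there, with a lower interval end of 3.61. Its prediction exceeds the 3.49 at 66 to 68% GC and so draws on the thinly supported highest stratum. Eif3f, with a predicted 1.25, had a ratio of 5.23 (1.98 to 17.4), and Eif4a2, with a predicted 1.62, had 5.83 (2.23 to 19.3). Eif2s2, with a predicted 1.33, had 4.53 (1.49 to 18.4). Eif3f, Eif4a2 and Eif2s2 had passed in these same counts. Others lay below their prediction, such as Eif3g, with a predicted 2.05 and a ratio of 1.63 (0.628 to 4.55). Eif4e3, with a predicted 3.23, had 0.335 (0.00639 to 4.17). The correction turned 8 members to below 0 within 500 bp, where 3 had been below 0 before it.

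**Figure D4:**
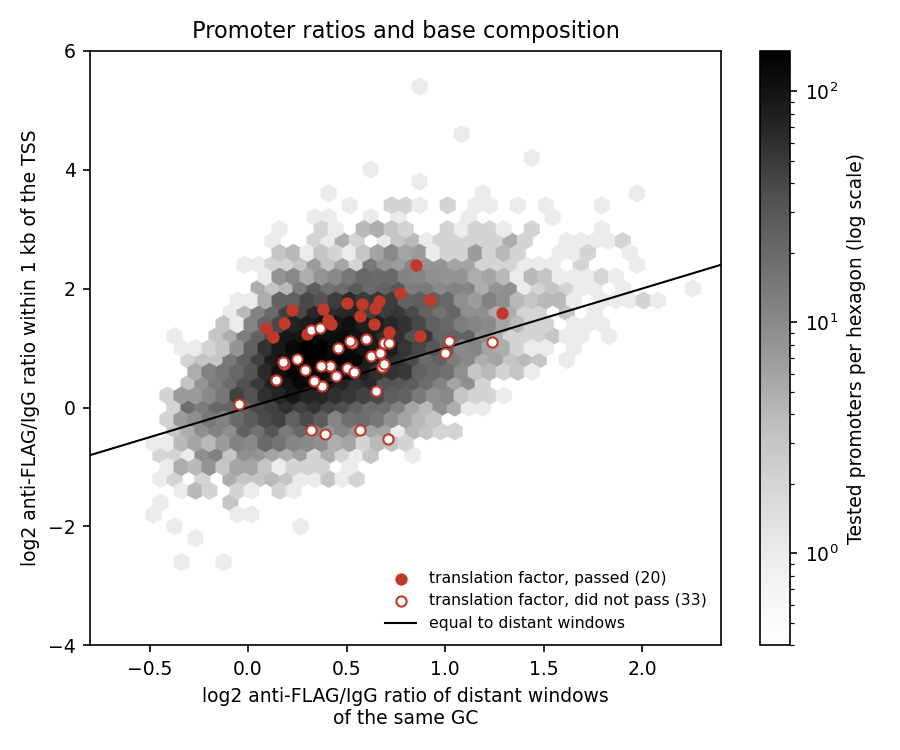
Log2 anti-FLAG to IgG ratio within 1 kb of the TSS (vertical axis) against the log2 ratio of windows of the same GC more than 10 kb from any TSS (horizontal axis), for the 53 tested translation factor genes (circles, filled for the 20 that passed) and all 10947 tested promoters (grey hexagons, log-scaled counts). Points on the black line equal their expectation from GC. All 20 filled circles lie above it, but they were picked for a high ratio in these same counts.

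Enriched regions were called across the genome as merged 500-bp windows holding 10 or more anti-FLAG tags, 2-fold or more above the local background and a Poisson p under 1e-05. Such regions overlapped 1 kb either side of the TSS at 9 members (Eef1g, Eefsec, Eif2s1, Eif3a, Eif3b, Eif3f, Eif3m, Eif4a2 and Eif4ebp1), against 7.37% of all 22350 promoters. With the GC correction, 3 members kept one (Eif3a, Eif3b and Eif3f), against 2.95% of all. The region with the smallest p among members was at Eif3f, chr7:116077501-116078250, where the best window held 25 anti-FLAG and 4 IgG tags, 6.29-fold over background. At Eif3b it was chr5:140894501-140895250, with 19 anti-FLAG and 3 IgG tags and 6.37-fold over background. Both are at the AT-richer promoters printed above, the Eif3b region ending just upstream of the TSS and the Eif3f region spanning it. The region of Eif4ebp1, chr8:28371251-28372000, lies inside the gene, its centre 827 bp from the TSS.

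Gene bodies showed a much smaller difference. From 1 kb past the TSS to the end of the gene, the members together had 9925 anti-FLAG and 9184 IgG tags, a ratio of 1.09 (1.06 to 1.12), against 1.03 over all protein-coding genes. Long genes weigh heavily in that sum. Eif4e3, with a body of 408313 bp, had 2499 anti-FLAG and 2159 IgG tags, Eefsec had 1014 and 885, and Eif4g3 had 919 and 840. No pooled ratio was computed without them. In exons the ratio was 1.17 (1.07 to 1.29), against 1.15 over all, and in introns it was 1.08 (1.05 to 1.11), against 1.02. Single bodies had an interval wholly above 1 at 11 members, against 16.7% of all 20451 protein-coding genes with such a body, and wholly below 1 at 3 members, against 6.56%.

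Lists of genes that act with these factors were also counted within 1 kb and tested over all promoters. In the integrated stress response and its kinases, anti-FLAG was higher at 6 of 9 promoters tested, with a median log2 ratio of 1.21 over all 10. These included Ddit3, for the transcription factor CHOP, with 32 anti-FLAG and 8 IgG tags, and Atf4, with 40 and 13. In mTORC1 signalling it was higher at 4 of 10 tested (median 1.12 over 11), among them Rps6kb2, for an S6 kinase, with 39 and 16 tags. Among the partners of the cap and poly(A) tail it was higher at 3 of 7 tested (median 0.89 over 11). There Pabpc1, for the main cytoplasmic poly(A)-binding protein, had 27 anti-FLAG and 2 IgG tags.

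The termination and recycling list had 1 of 3 tested promoters higher (median 0.98 over 4), which was Etf1, for the release factor, with 23 anti-FLAG and 6 IgG tags. The mitochondrial translation factors had 5 of 8 higher (median 1.20), including Gfm2, for a mitochondrial recycling factor, with 40 and 12 tags, which also passed with the GC correction (adjusted exact p = 0.0341). The aminoacyl-tRNA synthetases had 5 of 20 higher (median 0.89), led by Yars with 23 and 2 tags and Farsb with 46 and 13, and Farsb passed with the GC correction (adjusted exact p = 0.0241).

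The cytosolic ribosomal protein genes had 40 of 71 tested promoters higher within 1 kb, with a median log2 ratio of 1.23 over all 80, and 30 of 36 within 500 bp. Rps26 had 54 anti-FLAG and 14 IgG tags and Rpl7 had 33 and 5. Anti-FLAG was lower in none of these lists, and the background of 29.6% applies to each count within 1 kb and 62.6% to that within 500 bp. With the GC correction the ribosomal protein genes kept 6 promoters higher within 1 kb and 11 within 500 bp, against 1.82% and 11.5% of all promoters tested. Within 1 kb the stress response, mTORC1, cap and poly(A), and termination lists then kept 0 each, the mitochondrial factors 1 and the synthetases 1. Within 500 bp the mitochondrial factors kept 4 of 6 tested, mTORC1 signalling 1 of 3 and the synthetases 1 of 12, against 2 of 23 members. The stress response and the cap and poly(A) lists kept 0 of 4 each there, and 0 termination promoters were tested. Enriched regions overlapped 7 of 8 mitochondrial factors, 31 of 80 ribosomal protein genes, 8 of 20 synthetases and 5 of 11 mTORC1 genes. They overlapped 2 of 10 stress response, 1 of 11 cap and poly(A) and 0 of 4 termination genes. The counts beside these are 9 of 57 members and 7.37% of all promoters. No test was made between lists.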

How the data were processed

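Tag positions were compared between 1 anti-FLAG and 1 IgG library. Chromatin was fixed in 1% formaldehyde for 15 min and sheared to about 300 to 500 bp, per the labels' protocols. The deposited files list start, end and strand of each tag as positions (unit other), and the score column of the deposited files is the constant 512 and was not used. The authors' aligner, build and filters were not given in the sources used here. Tag extents fitted NCBIM37, whose GENCODE annotation gave the outermost TSS of each gene. Within a library each tag had a position and strand of its own. Tags were moved 74 bp towards the fragment centre and counted within 1000 and 500 bp of the TSS on the autosomes and X, which held 9255188 anti-FLAG and 9308877 IgG tags. IgG was scaled by 0.994. Log2 ratios had 1 tag added. Promoters with 20 or more tags had the 2-sided exact conditional binomial test with Benjamini-Hochberg adjustment at 0.05, and intervals are Clopper-Pearson at 95%. The GC correction multiplied IgG by the ratio of windows over 10000 bp from every TSS in strata of 2 GC points. Background for regions was the largest of scaled IgG in the window, its means over 5000 and 10000 bp, and the genome mean. Python 3.11.15, NumPy 2.4.6, SciPy 1.17.1, pandas 2.3.3, Numba 0.67.0 and Matplotlib 3.10.9 were used, and the promoter test was checked on simulated data. Members and lists were chosen with earlier results of these data known. Named genes were members past the test in either window, with a region, of highest or lowest ratio, the 2 of smallest p per role or list, or with too few tags. A further upstream sequence is not reported here. Other members are named as counts near the threshold or for their role, chosen after their values were seen. Alternatives changed the scaling, shift, start, width, tag minimum, adjustment, pseudocount and GC correction.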

Additional observations from a re-analysis of the deposited data

How the results depend on the processing

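With the GC correction, members higher came to 0 within 1 kb and 2 within 500 bp, the median log2 ratios to 0.43 and 0.60, the pooled ratios to 1.46 and 1.78, the gene-body ratio to 1.04 and members with a region to 3, and of 25 named members 20 lost their call while keeping log2 ratios of 0.37 to 1.72. Scaling by background bins (0.909) gave a gene-body ratio of 1.19, and 26 and 15 members higher, against 37.8% and 67.4% of all promoters. Within 2500 bp, 8 members were higher (10.4% of all), with a median log2 ratio of 0.64 and a pooled ratio of 1.52. With no tag minimum 13 members were higher within 1 kb (12.3% of all), and with a minimum of 10 tags 20 were higher within 500 bp (33.4% of all). Bonferroni adjustment left 0 members within 1 kb (1.34% of all) and 1 within 500 bp (5.95%). Unshifted tags gave 18 and 16 members higher (29.4% and 61.7% of all), the start of the longest coding transcript 19 and 14 (30.1% and 62.7%), and leaving out the 17 members with another TSS within 2000 bp left 15 of 38 and 9 of 15 tested. A pseudocount of 0.5 turned no direction, and it does not enter the test. None of the 25 members counted above turned direction within 1 kb in the alternatives run. The GC correction turned 3 of all 57 to below 0 within 1 kb (Eef1a2, Eef1d and Eif4ebp2, none of them among the 25) and 8 within 500 bp. The causes were not tested. A GC-corrected ratio against 0 IgG tags cannot move, which concerns 6 members within 500 bp. Depth limits single promoters, and members with ratios near 2, such as Eif4a1 with 23 anti-FLAG and 11 IgG tags, missed the threshold. No paired analysis was possible because each antibody has 1 library, so no replicate could be left out either.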

Other observations

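Single gene bodies were outside the promoter windows at the outermost TSS. Of the 57 members, 11 had a ratio of anti-FLAG to IgG tags past 1 kb of the TSS with an interval wholly above 1, and 3 had one wholly below 1, against 16.7% and 6.56% of all 20451 protein-coding genes with a body past 1 kb. Those above 1 include Eef1a1 and Eif4g1. The bodies of these 2 genes hold the start of their longest coding transcript, 7427 and 4410 bp from the outermost TSS. Also above 1 are the genes for the helicase eIF4A1 and the translocase eEF2, whose promoters had not passed. Eif4a1 had 42 anti-FLAG and 22 IgG tags over its body, a ratio of 1.92 (1.12 to 3.38), and Eef2 had 42 and 23, a ratio of 1.84 (1.08 to 3.20). The 3 below 1 were Eif2s2, with 151 anti-FLAG and 203 IgG tags (0.748, 0.602 to 0.928), Eif3e, with 196 and 254 (0.776, 0.641 to 0.939), and Eif4e, with 162 and 206 (0.791, 0.640 to 0.976). Eif2s2 thus had a ratio over its body on the other side of 1 from that at its promoter. These intervals are not adjusted for the 57 genes, and base composition was not taken into account for single bodies.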
